A study of Mus musculus with 16 samples.

Results

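The nuclear exportins are the carrier proteins that take cargo out of the cell nucleus. The 6 genes Xpo1, Xpo4, Xpo5, Xpo6, Xpo7 and Xpot were taken by symbol from a table of 24421 gene symbols, and all 6 passed the filter on low counts that kept 15641 genes. RNA carrying a polyA tail was sequenced from lumbar dorsal root ganglia, which hold the cell bodies of the sensory neurons, dissected from mouse embryos of strain C57BL/6 at day 13.5. There are 4 groups of 4 libraries, 16 in all. KO_alpha3 lacks importin α3 (gene Kpna4), and KO_beta has the 3′ untranslated region of Kpnb1, the importin β1 gene, knocked out. WT_alpha3 and WT_beta are wild types named with the α3 and the β1 line, and all 8 were used by the submitters as controls of each knockout. No label gives the cells in which either deletion acts, litters or pooling. Libraries are named by group and title number.

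Exportins belong to the karyopherin β family, as importin β1 does. In the nucleus they bind cargo together with Ran loaded with GTP, pass the pore, and release the cargo when GTP is hydrolysed in the cytoplasm. Xpo1, also called CRM1, takes proteins with a leucine-rich export signal, ribosomal subunits and spliceosomal RNAs. Xpot takes mature tRNAs, Xpo5 takes microRNA precursors, Xpo6 takes actin bound to profilin, and Xpo4 takes the translation factor eIF5A and Smad3. Xpo7 has broad cargo and is known in the mouse for its part in the nuclear maturation of red cell precursors. In neurons, importins and exportins also take part in signalling between the axon and the cell body.

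Library totals ran from 19682595 to 26873361 counts, and Xpo4, the lowest exportin, had 241 to 518 reads per library while each other exportin had 1670 to 5588. Levels below are CPM, read counts divided by library size and TMM scaled, which sets the libraries to a common base. Whether each library is its own embryo is not labelled, and p-values here reflect the spread over libraries, part of which may be technical. Kpna4 averaged 0.862 ± 0.234 CPM in KO_alpha3 (SD, n = 4) and 76.6 ± 4.38 CPM in the wild types (SD, n = 8). Kpnb1 averaged 529.6 ± 23.0 CPM in KO_beta and 514 ± 89.2 CPM in KO_alpha3 (SD, n = 4 each). In the wild types it averaged 437 ± 49.1 CPM (SD, n = 8). This count over the whole Kpnb1 gene does not check a deletion of its untranslated region. All 12 sensory neuron markers checked were above 0 in each group, with summed levels of 7329 to 14337 CPM per library. Libraries differed in markers of other tissues: WT_beta 399 had 4485 CPM of 8 summed liver genes where the other libraries had at most 523, and WT_alpha3 79 had 10304 CPM of summed erythroid genes where the other libraries had at most 5116. The summed level of Y-linked genes was over 10 CPM in 2 of 4 KO_alpha3, all 4 KO_beta, all 4 WT_alpha3 and 0 of 4 WT_beta libraries, and at most 1.15 CPM in the others. In these bulk samples fewer cells of a type and less RNA per cell cannot be told apart.

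The 6 genes lie on 5 chromosomes of the mm10 build. Xpo1 is at chr11:23256041-23298249 on the plus strand, Xpo5 at chr17:46202782-46243598 on the plus strand, Xpo6 at chr7:126101715-126200501 on the minus strand and Xpot at chr10:121587380-121626332 on the minus strand. Xpo4 at chr14:57577521-57665430 and Xpo7 at chr14:70654246-70766628 share chromosome 14, both on the minus strand. The exons of Xpo7 overlap those of Npm2, which averaged 0.315 CPM, by 39 bases, and those of Xpo4 overlap Gm49361, which has no row in the table, by 332 bases. Exons of the other 4 genes overlap no annotated neighbour.

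RefSeq promoter sequence (GRCm38.p6, from 250 bases before to 50 bases after the gene start) matched Xpo1, Xpo5, Xpo6 and Xpot, and the short stretches printed here show where these promoters hold the same letters and where they differ. Capitals mark the motif, and each line reads 5′ to 3′ on the gene's strand. Counted from the gene start in RefSeq, the Xpo1 pair starts 183 and 140 bases before it, the Xpo6 site 7 bases before it and the Xpo5 pair 85 and 62 bases before it. For Xpo5 the RefSeq start lies downstream of the first base of the coordinates given above.
Xpo1 at chr11:23255852-23255868: ctccgaCCAATaagagg
Xpo1 at chr11:23255895-23255911: ggccgaCCAATgggcgc
Xpo6 at chr7:126200498-126200514: ttccggATTGGtccggt
Xpo5 at chr17:46202721-46202740: cgcgcGCGCATGCGCcgtgg
Xpo5 at chr17:46202744-46202763: ctccgGCGCATGCGCagcgc
CCAAT, searched on both strands and written ATTGG where it lies on the other one, is held by Xpo1 and Xpo6 and by 37.4% of the 32851 promoters of this length. The palindrome of the Xpo5 pair, the letters known as the NRF1 motif, is held by Xpo5 alone among the 4 and by 0.971% of all promoters. The GC box GGGCGG is in all 4 and in 35.7% of promoters, and the E-box CACGTG is in Xpot and in 7.15%. The GATA letters AGATAA, in 11.2% of promoters, and TATAAA, in 13.6%, are in none of the 4. The 4 promoters were 61.7% to 72.3% G and C, where the median promoter was 52.7%. These matches describe letters in a window and do not show that a factor binds.

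Per length, Xpo6, Xpo1 and Xpo7 were the highest exportins of the embryonic ganglion and Xpo4 the lowest. Levels were divided by the length of each gene's principal transcript (GENCODE M21) so that genes could be compared. Over the 16 libraries Xpo6 averaged 33.9 ± 2.98 CPM per kilobase (SD, n = 16) and Xpo1 averaged 30.1 ± 3.57. Xpo7 averaged 25.5 ± 6.08, Xpo5 18.4 ± 1.43, Xpot 15.9 ± 1.03 and Xpo4 1.95 ± 0.318 on the same scale. Xpo6 was above Xpo1 in 16 of 16 libraries, Xpo1 above Xpo7 in 13, Xpo7 above Xpo5 in 16, Xpo5 above Xpot in 15 and Xpot above Xpo4 in 16. Of these neighbours in the order, Xpot and Xpo4 alone had ranges over the libraries that did not overlap. Of the summed level per length, Xpo6 made up 27.0%, Xpo1 23.9%, Xpo7 20.1%, Xpo5 14.7%, Xpot 12.8% and Xpo4 1.55%. The place of Xpo7 depends on the transcript: over all its annotated exons, 15676 bases in place of 4472, it averaged 7.28 ± 1.73 CPM per kilobase and lay below Xpot. The summed level of the 6 was 129 ± 9.15 CPM per kilobase in KO_alpha3, 123 ± 6.87 in KO_beta, 132 ± 17.1 in WT_alpha3 and 119.2 ± 4.72 in WT_beta (SD, n = 4 each), and the ranges of the 4 groups overlapped.

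**Figure D1:**
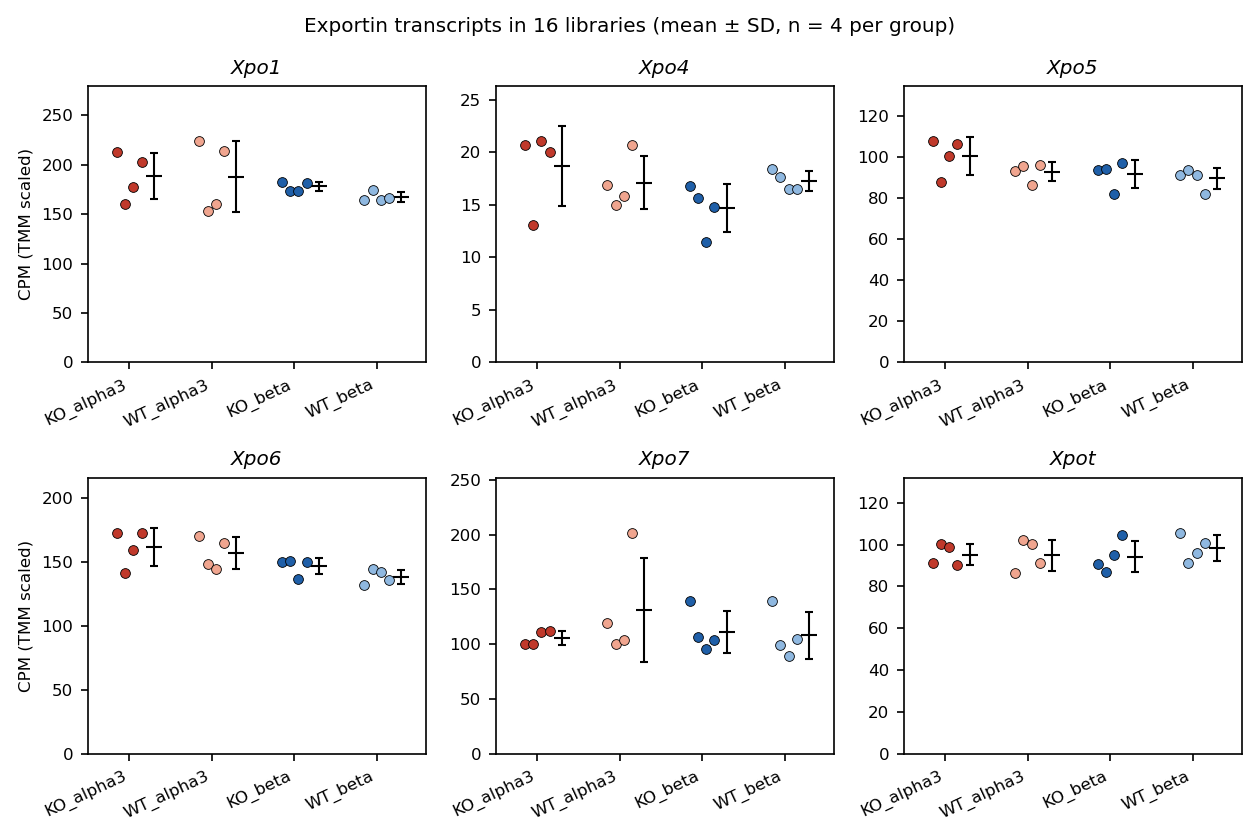
Level of each exportin in CPM after TMM scaling (linear axes from 0) in the 4 libraries of each group, with the group mean and SD. WT_alpha3 79 stands at 202 CPM of Xpo7 above the other libraries. Each knockout overlaps the 8 wild types in every panel, and WT_alpha3 lies above WT_beta without overlap for Xpo6.

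No exportin passed the test in any comparison. The test was edgeR's quasi-likelihood test over all 15641 genes with Benjamini-Hochberg adjustment at 0.05, and log2 fold changes (log2FC) are given with their standard error (SE). In KO_alpha3 against the 8 wild types 0 of 6 exportins were called, beside 0.00639% of all genes, which is 1 gene, Kpna4 itself. At an unadjusted p under 0.05 it was 1 of 6, Xpo5, beside 10.8% of all genes. In KO_beta against the 8 wild types 0 of 6 were called, beside 0% of all genes, and 0 of 6 had an unadjusted p under 0.05, beside 2.23% or 349 genes. DESeq2 called 1 gene there, which was no exportin. In KO_alpha3 DESeq2 called 128 genes and edgeR without KO_alpha3 50 called 124, with 0 exportins among either. No exportin separated the knockout libraries from all wild types: the share of all genes that did so was 0.198% higher and 0.416% lower in KO_alpha3, and 0.0703% higher and 0.0639% lower in KO_beta. Both comparisons use the same 8 wild types, so the values of the 2 knockouts are given side by side.

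Xpo1, the general protein exporter, came next to Xpo6 in level per length. The KO_alpha3 libraries 42, 50, 75 and 81 held 213, 161, 178 and 203 CPM and the KO_beta libraries 398, 402, 406 and 411 held 183, 174, 174 and 182 CPM, against a lowest, median and highest of 154, 165 and 224 CPM in the 8 wild types. The groups overlapped fully. Libraries of both genotypes of the α3 line stood at the top, KO_alpha3 42 and 81 beside WT_alpha3 45 and 79 at 224 and 214 CPM, and no other library was above 183 CPM. The log2FC was 0.085 ± 0.103 in KO_alpha3 (adjusted p = 0.813, 95% interval -0.13 to 0.30) and 0.0020 ± 0.104 in KO_beta (adjusted p = 0.996, interval -0.22 to 0.22). Leaving out each library in turn, the KO_alpha3 value ran from 0.025 without KO_alpha3 42 to 0.17 without KO_alpha3 50. Over all 33 alternatives it ran from 0.0048 to 0.24. Xpo1 averaged 189 ± 23.7 CPM in KO_alpha3, and the wild types of the same line averaged 188 ± 35.9 CPM. The mean of the WT_beta libraries was 168 ± 4.85 CPM (SD, n = 4 each).

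Xpot, the tRNA exporter, was the most even of the 6, with an SD of 6.47% of its mean over the 16 libraries where that of Xpo7 was 23.8%. KO_alpha3 held 91.2, 100.2, 98.7 and 90.5 CPM and KO_beta 90.8, 86.9, 95.1 and 104 CPM, against 86.2, 98.1 and 106 CPM as lowest, median and highest of the wild types. No knockout library lay outside the wild-type range. The log2FC was -0.022 ± 0.064 in KO_alpha3 (adjusted p = 0.937, interval -0.16 to 0.11) and -0.035 ± 0.064 in KO_beta (adjusted p = 0.934, interval -0.17 to 0.10).

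Xpo5, the exporter of microRNA precursors, had the lowest p of the 6 in KO_alpha3. It stood at 108, 87.5, 101 and 106 CPM in KO_alpha3 and at 93.4, 93.9, 82.0 and 97.2 CPM in KO_beta, against 82.1, 92.2 and 96.1 CPM as lowest, median and highest of the wild types. In KO_alpha3 the libraries 42, 75 and 81 were above every wild type and library 50 lay among them, and 2.8% of all genes had at least 3 of 4 KO_alpha3 libraries above every wild type. The means were 100.5 ± 9.14 CPM in KO_alpha3 (SD, n = 4) and 91.2 ± 4.83 CPM in the wild types (SD, n = 8). The log2FC in KO_alpha3 was 0.14 ± 0.06, an interval of 0.0039 to 0.28, with an unadjusted p of 0.0446 and an adjusted p of 0.454 by edgeR, so it did not pass. An unadjusted p under 0.05 in the same direction was found for 4.21% of all genes. Without KO_alpha3 50 the log2FC was 0.22 (edgeR adjusted p = 0.101), and without KO_alpha3 42 it was 0.11. In KO_beta, where library 411 was just above and library 406 just below every wild type, it was 0.0072 ± 0.064 (edgeR adjusted p = 0.980).

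Xpo6, the exporter of actin with profilin, stood at 173, 141, 159.6 and 173 CPM in KO_alpha3 and at 149.9, 151, 137 and 150.3 CPM in KO_beta, against 132, 145 and 171 CPM as lowest, median and highest of the wild types. KO_alpha3 42 and 81 were just above every wild type and the other 6 knockout libraries lay within their range. The log2FC was 0.13 ± 0.07 in KO_alpha3 (adjusted p = 0.562, interval -0.028 to 0.29) and -0.0082 ± 0.074 in KO_beta (adjusted p = 0.980, interval -0.17 to 0.15). Without KO_alpha3 50 the KO_alpha3 value was 0.21 (edgeR adjusted p = 0.171).

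Xpo4, the exporter of eIF5A, was the lowest of the 6 and had opposite signs in the 2 knockouts. KO_alpha3 held 20.7, 13.0, 21.0 and 20.1 CPM and KO_beta 16.8, 15.7, 11.5 and 14.8 CPM, against 15, 16.7 and 20.7 CPM as lowest, median and highest of the wild types. KO_alpha3 75 was just above every wild type, and KO_alpha3 50 and KO_beta 406 and 411 were below every one. The log2FC was 0.12 ± 0.13 in KO_alpha3 (adjusted p = 0.789, interval -0.15 to 0.40) and -0.23 ± 0.13 in KO_beta (adjusted p = 0.932, interval -0.51 to 0.053). Leaving out each library, it ran from 0.075 without KO_alpha3 42 to 0.28 without KO_alpha3 50 in KO_alpha3, and from -0.32 without KO_beta 398 to -0.14 without KO_beta 406 in KO_beta. The difference of the 2 effects, each against its own wild types, was 0.37 ± 0.22 for Xpo4 (unadjusted p = 0.118, edgeR adjusted p = 0.996). Y-linked level was over 10 CPM in all KO_beta and no WT_beta libraries. The KO_beta part of this difference cannot be told apart from Y-linked level.

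Xpo7, the exporter known from red cell precursors, varied most between libraries. KO_alpha3 held 101, 100.2, 111 and 112 CPM and KO_beta 139.6, 107, 95.7 and 104 CPM, against 89.6, 104 and 202 CPM as lowest, median and highest of the wild types. WT_alpha3 79 alone stood at 202 CPM, KO_beta 398 and WT_beta 399 followed at 139.6 and 139 CPM, and the other 13 libraries lay between 89.6 and 119 CPM. The log2FC was -0.18 ± 0.18 in KO_alpha3 (adjusted p = 0.783, interval -0.56 to 0.21) and -0.10 ± 0.18 in KO_beta (adjusted p = 0.933, interval -0.49 to 0.28). Without WT_alpha3 79 it was -0.022 in KO_alpha3 and 0.030 in KO_beta, and without KO_beta 398 it was -0.26 in KO_beta.

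**Figure D2:**
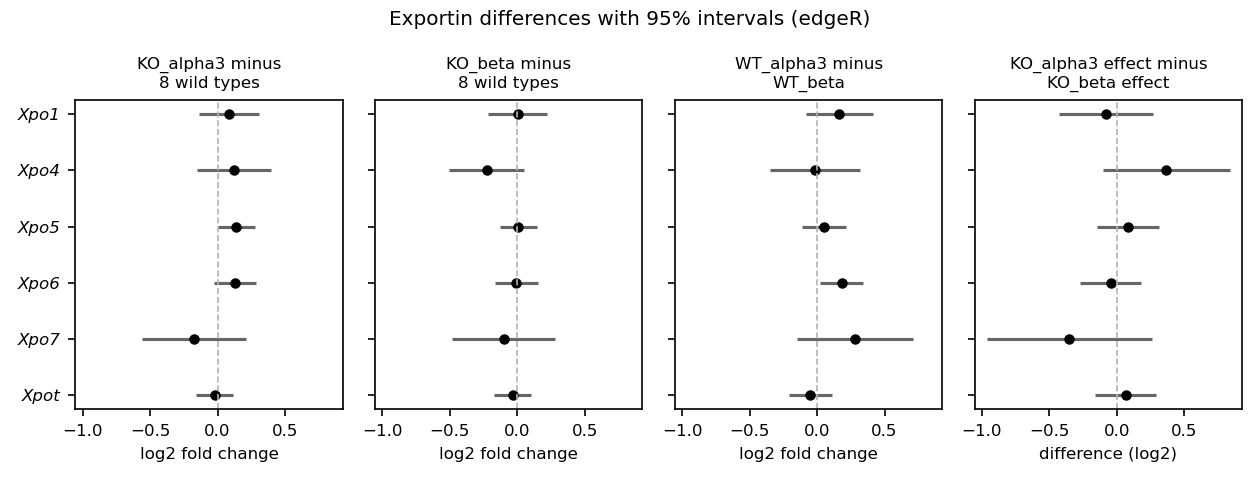
Log2 fold change of the 6 exportins (x axis, points) with 95% intervals (lines) in 4 panels: KO_alpha3 against the 8 wild types, KO_beta against the 8 wild types, WT_alpha3 against WT_beta, and the KO_alpha3 effect minus the KO_beta effect. All intervals but those of Xpo5 in KO_alpha3 and of Xpo6 between the wild types include 0, and no exportin passed adjustment over all genes.

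The wild types of the 2 lines, compared as WT_alpha3 against WT_beta, had 0 of 6 exportins called, beside 0.0192% of all genes. Xpo6 was the 1 of 6 with an unadjusted p under 0.05, beside 5.27% of all genes and 3.2% in the same direction. It stood at 171, 149, 145 and 165 CPM in WT_alpha3 and at 132, 144, 142 and 136 CPM in WT_beta, and these groups did not overlap, as was so for 1.53% of genes that were higher and 1.18% that were lower in WT_alpha3. The log2FC was 0.18 ± 0.07 (unadjusted p = 0.0288, edgeR adjusted p = 0.893). It was 0.058 without 4 wild-type libraries, 45 and 79 of WT_alpha3 and 399 and 401 of WT_beta. Earlier results put these high in markers of other cell types. That fit kept only WT_alpha3 54 and 55 and WT_beta 410 and 415 as wild types. Xpo7 was at 0.28 ± 0.20 and at -0.019 without WT_alpha3 79, and Xpo1 was at 0.17 ± 0.12, with 0.056 to 0.26 leaving out each library. All WT_alpha3 and no WT_beta libraries were over 10 CPM of Y-linked genes, so line and Y-linked level cannot be told apart here. For the difference of the 2 knockout effects 0 of 6 exportins were called, beside 0.00639% of all genes, and 0 of 6 had an unadjusted p under 0.05, beside 1.22%. All KO_beta and no WT_beta libraries were over 10 CPM of Y-linked genes, so the KO_beta part of this difference cannot be told apart from Y-linked level.

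Xpo7 followed the erythroid genes over the libraries. The erythroid list held 9 genes, of which 7 were kept and the adult globins Hba-a1 and Hbb-bt were at 0 in every group. Its summed level per library was 698 to 2801 CPM in KO_alpha3, 397 to 3401 in KO_beta, 494 to 10304 in WT_alpha3 and 378 to 2235 in WT_beta. Between log2 CPM of Xpo7 and the mean log2 CPM of the list, Pearson's r was 0.909 over 16 libraries (permutation p = 1e-05, the smallest that 100000 permutations can give, adjusted over 30 relations 0.0003), and Spearman's rho was 0.785 (permutation p adjusted over the 30 relations 0.0053). Within the 8 libraries of the α3 line r was 0.921 and within those of the β line 0.897. Without the 2 libraries farthest from the median of the list, WT_alpha3 79 and WT_beta 399, it was 0.811. Xpo7 ran against the glial and Schwann precursor list, with r = -0.816 (permutation p adjusted over the 30 relations 0.0025), -0.872 in the α3 line and -0.783 in the β line, and -0.509 without the same 2 libraries. With the erythroid mean as a covariate, a fit added after the data were seen, the log2FC of Xpo7 was -0.068 in KO_alpha3 and 0.010 in KO_beta. The part of these cells in the level of Xpo7 was not tested.

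**Figure D3:**
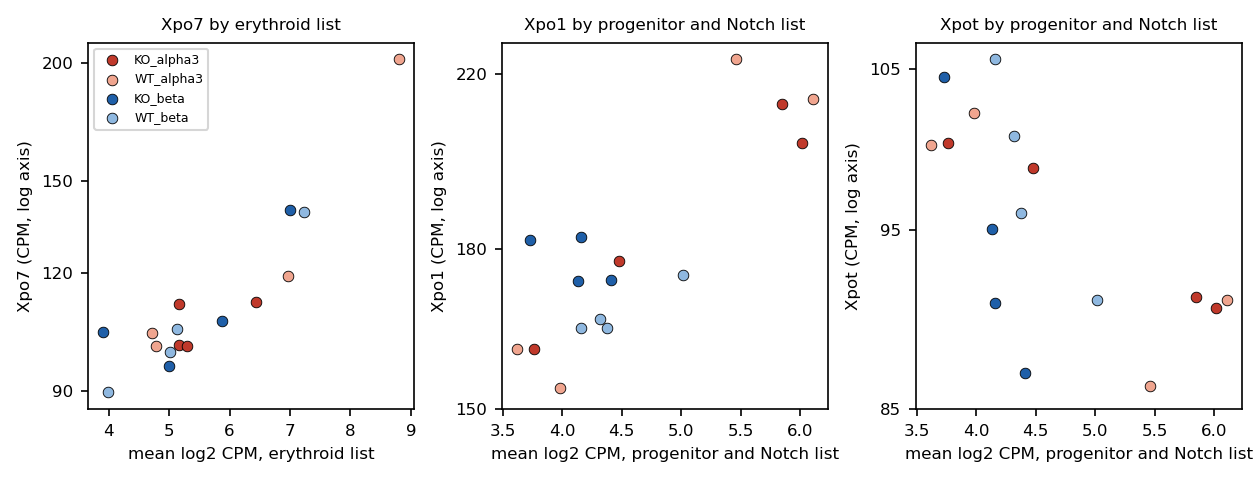
Level of Xpo7 (CPM, log axis) by the mean log2 CPM of the erythroid list, and of Xpo1 and Xpot by that of the progenitor and Notch list, 1 point per library coloured by group. Xpo7 follows the erythroid list in both lines (r = 0.921 and 0.897), and Xpo1 with the progenitor list has r = 0.930 in the α3 line and -0.255 in the β line, where the list spans a narrower range.

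Xpo1 and the progenitor list had r = 0.930 in the 8 libraries of the α3 line, where the list means ran from 3.62 to 6.11 (log2 CPM), and -0.255 in the 8 of the β line, where they ran from 3.73 to 5.02. The difference between the lines was not tested. The list holds 10 genes of neuronal progenitors and Notch signalling, such as Neurog1 and Hes5. The 4 libraries highest in Xpo1, KO_alpha3 42 and 81 and WT_alpha3 45 and 79, had progenitor means of 5.85, 6.01, 5.46 and 6.11 (log2 CPM), and the other 12 libraries had 3.62 to 5.02. Over 16 libraries r was 0.849 and rho 0.718 (permutation p adjusted over the 30 relations 0.0025 and 0.0103). The relation did not hold within the β line, and r over both lines was 0.797 without the 2 libraries farthest from the median. With the cell cycle list Xpo1 had r = 0.942 in the α3 line and -0.369 in the β line, and with the 12 sensory neuron genes r = -0.936 in the α3 line and 0.369 in the β line. Xpo6 had r = 0.931 with the progenitor list in the α3 line and -0.046 in the β line. Xpot ran the other way in both lines, with r = -0.881 and -0.561, and Xpo4 had r = 0.758 and 0.389. Of the 30 relations of 6 exportins with 5 lists, 14 passed adjustment by r and 11 by rho. The lists themselves move together over these libraries, and the part of any one in the level of an exportin was not tested.

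Among the exportins themselves, Xpo1 and Xpo6 had r = 0.839 over 16 libraries, 0.919 in the α3 line and 0.771 in the β line. Xpo5 and Xpo6 had r = 0.792, with 0.792 and 0.684 in the lines. Xpo1 and Xpot ran against each other, with r = -0.680, and -0.973 and -0.319 in the lines. Reads of Xpo1 over those of Xpot ran from 1.6 to 2.33 in KO_alpha3, 1.74 to 2.01 in KO_beta, 1.5 to 2.59 in WT_alpha3 and 1.56 to 1.92 in WT_beta. These correlations describe libraries that share a scaling and a dissection, and carry no test.

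**Figure D4:**
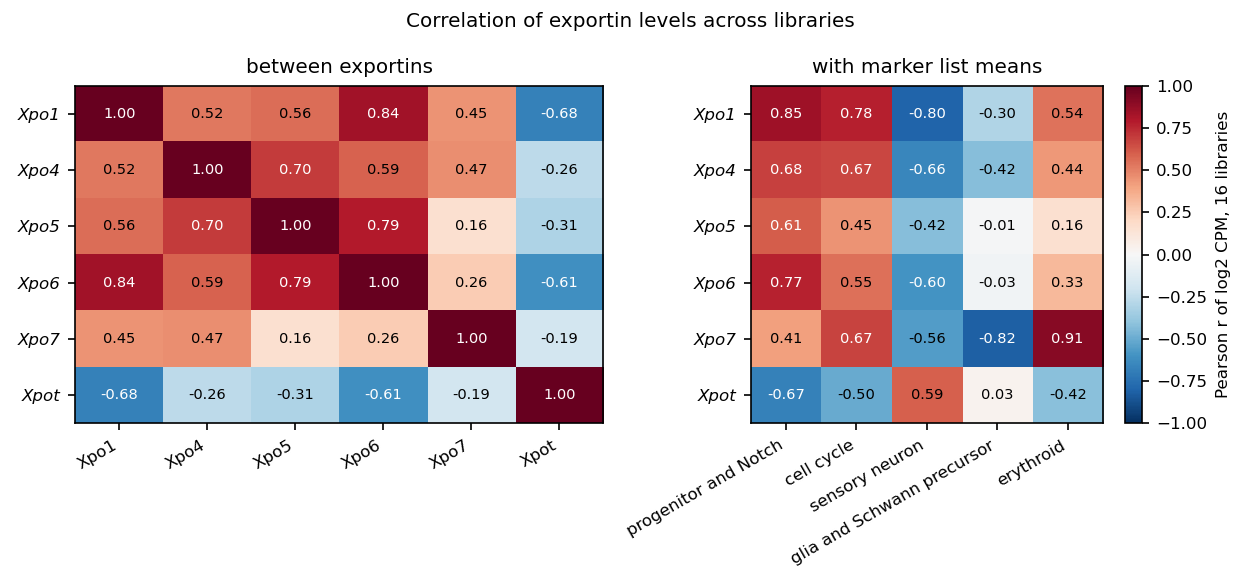
Pearson's r of log2 CPM over the 16 libraries between the exportins and between each exportin and 5 marker lists. Xpo7 and the erythroid list have the highest value of the marker lists (0.909), and Xpot is negative with each other exportin.

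By the same measure, Pearson's r of log2 CPM over 16 libraries among 10584 genes of at least 10 CPM, the 3 genes most like each exportin were as follows. Xpo1 was most like the zinc finger gene Zfp518a (0.941), the nucleoporin gene Nup205 (0.933) and the lamin gene Lmnb2 (0.930). Xpo6 was most like Supt5 (0.952), which encodes a transcription elongation factor, Smad4 (0.941) and Gtf3c1 (0.934). Xpo7 was most like Ranbp10 (0.941), Kel (0.930), the gene of a red cell surface antigen, which ran from 3.37 to 93.5 CPM, and Creg1 (0.927). Xpo5 was most like the histone demethylase gene Kdm4a (0.884), Ddx54 (0.876) and the glutamine transporter gene Slc38a1 (0.875). Xpo4 was most like the kinase gene Hipk2 (0.910), Fam208b (0.868) and Pds5a (0.867), and Xpot was most like Uxs1 (0.853), Rexo2 (0.830) and Sh3d19 (0.822). These are the highest of many values and are a description.

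The 3 relatives outside the Xpo names were likewise not called. Cse1l, which returns importin α to the cytoplasm, averaged 118 ± 17.7 CPM in KO_alpha3 (SD, n = 4), 104 ± 5.12 in KO_beta (SD, n = 4) and 109 ± 12.2 in the wild types (SD, n = 8), with log2FC of 0.11 ± 0.09 in KO_alpha3 and -0.067 ± 0.095 in KO_beta. Ranbp17, a close relative of Xpo7, was at 27.1 ± 3.99 CPM in KO_alpha3, 24.9 ± 1.53 in KO_beta and 23.1 ± 3.14 in the wild types, with log2FC of 0.23 ± 0.11 (edgeR unadjusted p = 0.0468) and 0.11 ± 0.11. Ipo13, which both imports and exports, was at 94.0 ± 12.7 CPM in KO_alpha3, 85.1 ± 1.18 in KO_beta and 82.8 ± 8.06 in the wild types, with log2FC of 0.18 ± 0.08 (edgeR unadjusted p = 0.0453) and 0.038 ± 0.084. The adjusted p of each in KO_alpha3 was 0.454 or above.

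Genes that work with each exportin were read out of the same fits from lists chosen with earlier results known, and 0 members of any list were called in either knockout. Over all 15641 genes 48.6% had a positive log2FC in KO_alpha3, with a median of -0.0059, and 49.2% in KO_beta, with a median of -0.0026. Among 10 genes of the Ran cycle, which drives every exportin, 9 were positive in KO_alpha3 (median 0.081) and 2 in KO_beta (median -0.059). Rangap1, which makes Ran hydrolyse GTP in the cytoplasm, was at 0.13 ± 0.06 in KO_alpha3 (edgeR unadjusted p = 0.0341, adjusted 0.432), and Rcc1, which loads Ran with GTP in the nucleus, was at -0.25 ± 0.17 in KO_beta (edgeR unadjusted p = 0.177). Among 13 adaptors and partners of Xpo1, 12 were positive in KO_alpha3 (median 0.12) and 3 in KO_beta (median -0.051). Nmd3, the adaptor of the large ribosomal subunit, was at 0.12 ± 0.07 in KO_alpha3, and Anp32b was at -0.29 ± 0.19 in KO_beta.

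Of 12 genes of tRNA maturation, which precedes export by Xpot, 8 were positive in KO_alpha3 (median 0.013) and 4 in KO_beta (median -0.039). Tsen54, a subunit of the tRNA splicing endonuclease, was at -0.20 ± 0.11 in KO_alpha3 and -0.15 ± 0.11 in KO_beta, and the tRNA ligase gene Rtcb was at 0.11 ± 0.06 in KO_alpha3. Of 11 genes of microRNA processing, upstream and downstream of Xpo5, 10 were positive in KO_alpha3 (median 0.096) and 2 in KO_beta (median -0.044). Dicer1, which cuts the precursors that Xpo5 exports, was at 0.14 ± 0.09 in KO_alpha3, while Prkra, a partner of Dicer, was at -0.096 ± 0.041 (edgeR unadjusted p = 0.0334, adjusted 0.430), and Ago4 was at 0.20 ± 0.10 in KO_beta. Of the 4 actin and profilin genes, cargo of Xpo6, 3 were positive in KO_alpha3 (median 0.092) and 2 in KO_beta (median 0.013), with Actg1 at 0.14 ± 0.08 in KO_alpha3 and Pfn1 at -0.16 ± 0.14 in KO_beta. Of 6 genes tied to Xpo4, 3 were positive in each knockout, with medians of -0.030 in KO_alpha3 and 0.0071 in KO_beta. These 6 genes cover eIF5A, its hypusine modification, Smad3 and Sox2. Eif5a was at 0.075 ± 0.089 in KO_alpha3 and Smad3 at -0.29 ± 0.21 in KO_beta. Of 19 genes of mRNA export, which does not use these exportins in the main, 15 were positive in KO_alpha3 (median 0.061) and 7 in KO_beta (median -0.036), with Thoc6 at 0.15 ± 0.06 in KO_alpha3 and Alyref at -0.29 ± 0.22 in KO_beta.

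Some of these list medians changed sign with the libraries and the scaling, and some did not. In KO_alpha3 the medians of the Ran cycle, Xpo1 partner, microRNA and mRNA export lists were positive under all 17 alternatives that leave out no single library. The robust spread, 1 of the 17, cannot change a log2FC. These medians ran from 0.014 to 0.25 for the Ran cycle and 0.059 to 0.20 for the Xpo1 partners. They ran from 0.023 to 0.15 for microRNA processing and 0.010 to 0.16 for mRNA export. The tRNA, actin and eIF5A medians changed sign, at -0.019 to 0.10, -0.046 to 0.19 and -0.064 to 0.068. Against its own wild types alone, KO_alpha3 had medians of 0.055, 0.073, 0.023 and 0.050 for the Ran cycle, Xpo1 partner, microRNA and mRNA export lists. WT_alpha3 against WT_beta had medians of 0.066, 0.094, 0.14 and 0.060 for these lists in that order, with 0.021 over all genes. The part of the line in the values against the 8 wild types was not tested. In KO_beta all 7 medians changed sign between alternatives. The same 4 libraries, all wild types, were left out in an alternative that kept every knockout library. KO_beta 398 was kept there with 523 CPM of summed liver genes. In that fit the Ran cycle had 8 of 10 positive (median 0.047) and the Xpo1 partners 11 of 13 (median 0.020) in KO_beta. The progenitor list had a median of 0.45 in KO_alpha3 and -0.62 in KO_beta against the 8 wild types. Between the wild types, WT_alpha3 against WT_beta, this list had a median of 0.63 with 10 of 10 genes positive. Its means in KO_alpha3 42, 50, 75 and 81 were split, at 5.85, 3.76, 4.48 and 6.01 (log2 CPM). Markers of other tissues had medians in KO_alpha3 of -1.61 for skeletal muscle, -3.19 for spinal cord, -2.65 for sympathetic, -3.30 for liver, -1.96 for epidermis and -1.08 for erythroid genes, where 9 of 10 spinal cord genes and all kept genes of the other 5 lists were negative. The same lists in KO_beta, in that order, had medians of -0.52, -1.54, -2.31, -1.69, -0.59 and -1.11. There 1 sympathetic and 1 epidermis gene were positive and all other kept genes were negative. Endothelium, fibroblast and macrophage lists were nearer to no difference, with medians of 0.0030, -0.34 and -0.45 in KO_alpha3. In KO_beta these were 0.0074, -0.15 and -0.22. In KO_beta all 30 cell cycle genes were negative (median -0.57), and in KO_alpha3 16 of 30 were (median -0.011). While 0 genes of any of these lists were called in either knockout, many had an unadjusted edgeR p under 0.05 in KO_alpha3. These were 12 of 12 skeletal muscle, 8 of 10 spinal cord, 3 of 8 sympathetic, 7 of 8 liver, 8 of 8 epidermis and 0 of 7 erythroid genes, beside 10.8% of all genes. In KO_beta they were 0 of 12, 3 of 10, 1 of 8, 0 of 8, 1 of 8 and 0 of 7, beside 2.23%. The part of other cells in the medians of the exportin pathways was not tested.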

How the data were processed

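PolyA RNA sequencing gave 16 libraries. The submitters' processing notes name TopHat2 2.0.10, HTSeq 0.6.1p1, DESeq2 1.6.3, cutadapt, bcl2fastq 2.17.1.14 and mm10. Their roles, the annotation and the strand setting were not stated, and reads of overlapping genes on either strand cannot be told apart. Every test used the raw read counts per gene symbol that the authors deposited. They also deposited normalized counts, a signal equal to the count times 1 constant per library, used in 1 alternative as log2 of the value plus 1.

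Genes were filtered (filterByExpr, minimum count 10, minimum total 15), scaled by TMM and tested across all genes by the 2-sided quasi-likelihood test of edgeR 4.0.16 in R 4.3.3 with Benjamini-Hochberg adjustment. Each knockout was compared with the 8 wild types (3 groups), and the wild types and the difference of effects in a fit with 4 groups. Log2 CPM used a prior count of 2. Relations over libraries used 100000 permutations. Scripts were tested on simulated counts. Lengths came from GENCODE M21 (GRCm38) and promoters from RefSeq. Alternatives covered the wild types and libraries used, scaling, filters, DESeq2 1.42.0, limma 3.58.1, a robust spread, covariates and leaving out each library.

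Named genes are the 6 exportins, 3 relatives, the 2 members of each pathway list with the lowest p in each knockout comparison, of which the text gives a part, the 3 genes most like each exportin, Kpna4 and Kpnb1. The members and lists were chosen with earlier results of these data known.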

Additional observations from a re-analysis of the deposited data

Results flagged for a closer look

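For each exportin the 4 groups and the pooled 8 wild types, which overlap, were checked, and 4 of these 30 sets had 1 library far from the others by Dixon's test at 95%, which chance flags in about 1 of 20 sets. Xpo1 stood at 175 CPM in WT_beta 401, above the other 3 WT_beta libraries at 165 to 166 CPM; that library was also high in skeletal muscle and spinal cord genes. Xpo4 stood at 13.0 CPM in KO_alpha3 50, below the other KO_alpha3 libraries at 20.1 to 21.0 CPM, and that library had the lowest progenitor mean of its group (3.76, log2 CPM). Xpo6 stood at 137 CPM in KO_beta 406, below the other KO_beta libraries at 149.9 to 151 CPM. Xpo7 stood at 202 CPM in WT_alpha3 79, above the other 7 wild types of both lines at 89.6 to 139 CPM and past the critical value there, with a gap of 0.559 of the range. Within WT_alpha3 itself the gap was 0.817 of the range, which did not pass the higher critical value for 4 libraries. That library had the highest erythroid mean of all 16 (8.81, log2 CPM). The part of other cells in these values was not tested.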

How the results depend on the processing

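The count of exportins called was 0 under all alternatives in all 4 comparisons. No paired analysis was possible because no replicate number is shared between groups. For the difference of effects, the fit to the groups compared is the fit to all 16 libraries and was not run apart.

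In KO_alpha3 against the wild types, the genes called over all genes were 1 as reported, 128 with DESeq2 (26 higher, 102 lower), 13 with the progenitor covariate, and 1 to 124 leaving out each library, the highest without KO_alpha3 50. In KO_beta they were 0 as reported, 1 with DESeq2 and 0 to 0 leaving out each library. Between the wild types they were 3 as reported, 9 in the fit to those groups alone, 29 with DESeq2, 12 with the progenitor covariate and 2 to 7 leaving out each library. For the difference of effects they were 1 as reported, 2 without a filter, 6 with DESeq2, 2 without the 4 libraries high in other cell types and 1 to 3 leaving out each library.

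No log2 fold change that changed sign was called. In KO_alpha3, Xpot was 0.0042 against its own wild types, 0.017 with the progenitor covariate and -0.036 to 0.0053 leaving out each library. Xpo7 was 0.11 without the 4 libraries high in other cell types and 0.056 without the 3 highest in erythroid genes. In KO_beta, Xpo1 was -0.0083 in the fit to the groups compared, -0.0089 with DESeq2 size factors, with no filter and with DESeq2, -0.022 with upper quartile scaling, -0.032 with library size, -0.011 with the 1 CPM filter, -0.0033 with the Y-linked covariate and -0.036 to 0.045 leaving out each library. Xpo5 was, in the same order, -0.0022, -0.0034, -0.0037 and -0.0032, -0.013, -0.023 and -0.0045, then -0.0034 with limma-trend and -0.032 to 0.048 leaving out each library. Xpo6 was 0.085 against its own wild types, 0.044 with the cell cycle, 0.0069 with the erythroid and 0.054 with the progenitor covariate, 0.041 without the 4 libraries and -0.041 to 0.015 leaving out each library. Xpo7 was 0.045, 0.096, 0.010, 0.020 and 0.16 in that order, and -0.26 to 0.030 leaving out each library. KO_beta against its own wild types cannot be told apart from Y-linked level. Between the wild types without the 4 libraries Xpo1 was -0.094 and Xpot 0.022, and leaving out each library Xpo4 ran from -0.14 to 0.049, Xpo5 from -0.017 to 0.085 and Xpo7 from -0.019 to 0.43. For the difference of effects Xpo1 was 0.20 without the 4 libraries and 0.038 without the 3, and -0.17 to 0.056 leaving out each library. Xpo6 was 0.0054 with no filter, 0.10 without the 4 libraries, 0.044 without the 3 and -0.073 to 0.058 leaving out each library. The cause was not tested. With 4 libraries a group, the unadjusted 95% intervals of the exportins in KO_alpha3 reach 0.40 on the log2 scale for Xpo4 and -0.56 for Xpo7.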
